A study of Mus musculus with 3 samples.

Results

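The 34 genes described here encode the enzymes of glycolysis and well-known targets of the hypoxia-inducible factor (HIF). They were chosen by name, as the rows of the gene tables whose symbol equals the member's symbol, and all 34 were found among the 28692 genes counted. UMI counts, in which each counted tag stands for 1 captured RNA molecule, were summed for each gene over the barcodes of a cell class in a library.

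Leukocytes from 2208L tumours were profiled in 3 libraries of single-cell RNA. Cells of the 2208L mouse mammary tumour line had been injected into the mammary gland of mice, tumours were taken after 4 weeks, and live cells (DAPI-) carrying the leukocyte marker CD45 were sorted. All 3 libraries carry the same labels, so there is no treated or untreated group, and the comparisons below are between cell classes and between neutrophil states within the same libraries. The labels give the cell type as tumour, although the sort was for CD45+ cells, and nothing in them says that the libraries come from separate animals; the p-values therefore measure only the spread between these libraries, which may be technical.

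Glycolysis splits glucose into pyruvate in the cytosol and yields ATP without oxygen. HIF-1 is a pair of proteins whose alpha subunit, from Hif1a, is hydroxylated by the EGLN enzymes and degraded while oxygen is present. When oxygen falls the subunit persists and the pair binds short DNA elements beside genes of glycolysis, glucose uptake, mitophagy, lipid storage and vessel growth. Neutrophils, short-lived phagocytes with few mitochondria, are known to rely on glycolysis, and many tumours hold poorly oxygenated regions.

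The libraries held 9846404, 15259236 and 9445914 UMIs in 4424, 6036 and 3876 barcodes, of which 14224 in all were kept. Clusters were named from standard markers after the 34 members and 63 other pathway genes had been taken out of the clustering genes. Neutrophil-like barcodes numbered 6179, monocyte/macrophage-like 3022, T-cell-like 3204, dendritic-cell-like 631, NK-cell-like 509, epithelial-like 270 and plasmacytoid-dendritic-cell-like 209. The neutrophil-like share was higher in library 3 (60.3%) than in libraries 1 and 2 (39.0% and 35.9%). Neutrophil-like barcodes were also the shallowest, with a median of 901 UMIs against 1424 in T-cell-like, 4260 in monocyte/macrophage-like and 8807 in epithelial-like barcodes. Between 25 and 37 barcode sequences were shared by any pair of libraries. Of those kept in both, 21.4% to 29.2% had the same class, where the class shares alone would give 26.2% to 31.5%.

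Sequence upstream of the start sites is shown first, for members whose levels the results below turn on. RefSeq start sites on GRCm38.p6 were found for 31 of the 34 members; Bnip3l, Ndrg1 and Ero1l had no entry. The core of the HIF element was searched as ACGTG or GCGTG on both strands, that is also as CACGT or CACGC, in windows from 250 bases before to 50 bases after each start site. CACGTG, the E-box bound by MYC-type factors, contains ACGTG on each strand and so counts as 2 matches. At least 1 match was present for 27 of the 31 members (87.1%) and for 46.7% of the 27025 genes with a window. A window with 2 or more matches was present for 20 members, against 22.9% of all genes. These are matches of letters and not measured binding. In the following lines the 250 bases before the start site run 5′ to 3′ on the gene's strand, with matches in capitals. Bnip3, which encodes a mitophagy receptor, and Ldha, which encodes a lactate dehydrogenase subunit, hold several matches each, with an E-box inside them, and Ankrd37 holds 4. Pfkfb4, which holds 1, and Gbe1, which like Tpi1, Gpi1 and Gys1 holds 0, are shown as the low end of the range. No relation between matches and levels was tested.
Bnip3, chr7:138909507-138909756, minus strand: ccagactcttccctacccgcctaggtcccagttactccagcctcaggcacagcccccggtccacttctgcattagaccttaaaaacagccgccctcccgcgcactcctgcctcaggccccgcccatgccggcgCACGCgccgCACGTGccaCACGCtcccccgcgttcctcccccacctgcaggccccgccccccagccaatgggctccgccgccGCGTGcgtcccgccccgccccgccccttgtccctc
Ldha, chr7:46845554-46845803, plus strand: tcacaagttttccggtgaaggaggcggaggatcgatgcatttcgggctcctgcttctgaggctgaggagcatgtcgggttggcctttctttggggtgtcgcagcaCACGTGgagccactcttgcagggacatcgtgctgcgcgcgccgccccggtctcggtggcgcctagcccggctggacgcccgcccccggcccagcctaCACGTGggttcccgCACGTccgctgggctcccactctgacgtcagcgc
Ankrd37, chr8:45999851-46000100, minus strand: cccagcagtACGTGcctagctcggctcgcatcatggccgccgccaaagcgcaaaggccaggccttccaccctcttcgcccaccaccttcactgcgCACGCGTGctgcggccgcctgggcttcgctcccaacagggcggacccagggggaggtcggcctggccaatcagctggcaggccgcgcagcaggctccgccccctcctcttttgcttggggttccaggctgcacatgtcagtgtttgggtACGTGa
Pfkfb4, chr9:108991652-108991901, plus strand: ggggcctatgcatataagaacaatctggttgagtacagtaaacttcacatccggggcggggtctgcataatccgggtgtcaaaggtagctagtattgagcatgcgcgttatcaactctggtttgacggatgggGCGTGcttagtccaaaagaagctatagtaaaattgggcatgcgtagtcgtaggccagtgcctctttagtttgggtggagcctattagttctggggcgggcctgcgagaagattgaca
Gbe1, chr16:70313699-70313948, plus strand: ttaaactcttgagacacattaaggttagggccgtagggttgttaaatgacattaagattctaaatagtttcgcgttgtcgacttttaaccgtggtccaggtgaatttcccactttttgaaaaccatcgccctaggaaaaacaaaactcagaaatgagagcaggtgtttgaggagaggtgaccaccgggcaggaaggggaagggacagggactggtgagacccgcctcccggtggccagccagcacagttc
Hilpda has 2 annotated start sites, and the window of the second holds 3 matches; the one at -43 from that start lies at chr6:29272573-29272597, plus strand, in the stretch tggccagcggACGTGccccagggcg.

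Across the cell classes the members were a larger part of the RNA in neutrophil-like barcodes than elsewhere. The 34 genes together took 2.11%, 1.90% and 2.13% of neutrophil-like UMIs in libraries 1, 2 and 3, against 0.774%, 0.750% and 0.855% of monocyte/macrophage-like UMIs and 0.851%, 0.862% and 0.867% of epithelial-like UMIs. T-cell-like barcodes (0.489% ± 0.0214, SD, n = 3 libraries), dendritic-cell-like (0.557% ± 0.0168), plasmacytoid-dendritic-cell-like (0.453% ± 0.0653) and NK-cell-like barcodes (0.369% ± 0.0261) were lower. The neutrophil-like shares overlapped with those of no other class. The 14 glycolytic enzymes took 1.40% ± 0.0791 in neutrophil-like barcodes and 0.676% ± 0.0546 in the monocyte/macrophage-like class. The gap was wider for the other 20 members, which took 0.652% ± 0.0811 and 0.118% ± 0.00854.

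By CPM, the count scaled by the total of its own sum, 30 of the 34 members were highest in neutrophil-like barcodes among the 7 classes, as were 17.4% of the genes tested, and for 27 of these the lowest neutrophil-like library lay above every library of every other class (9.94% of all genes). The exceptions were Egln1, Hk1, Pgk1 and Ndrg1, which were highest in epithelial-like barcodes. The order changed when UMIs were counted per barcode instead. Then only Egln3, Hilpda and Gbe1 of the members were highest in neutrophil-like barcodes (1.77% of all genes), and 26 members were highest in epithelial-like barcodes (68% of all genes), which held the most UMIs each. Against monocyte/macrophage-like barcodes, 6 members (Egln3, Hilpda, Ero1l, Adm, Ankrd37 and Ddit4) were higher per barcode in every library and 25 were lower in every library (all genes 2.94% and 91.9%). Against T-cell-like barcodes, 28 were higher per barcode and 3 lower (all genes 17.9% and 64.6%). After every barcode was thinned to 600 UMIs, which left out 771 neutrophil-like barcodes, the share of barcodes with a UMI was highest in the neutrophil-like class for 26 members (15.3% of all genes).

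**Figure D1:**
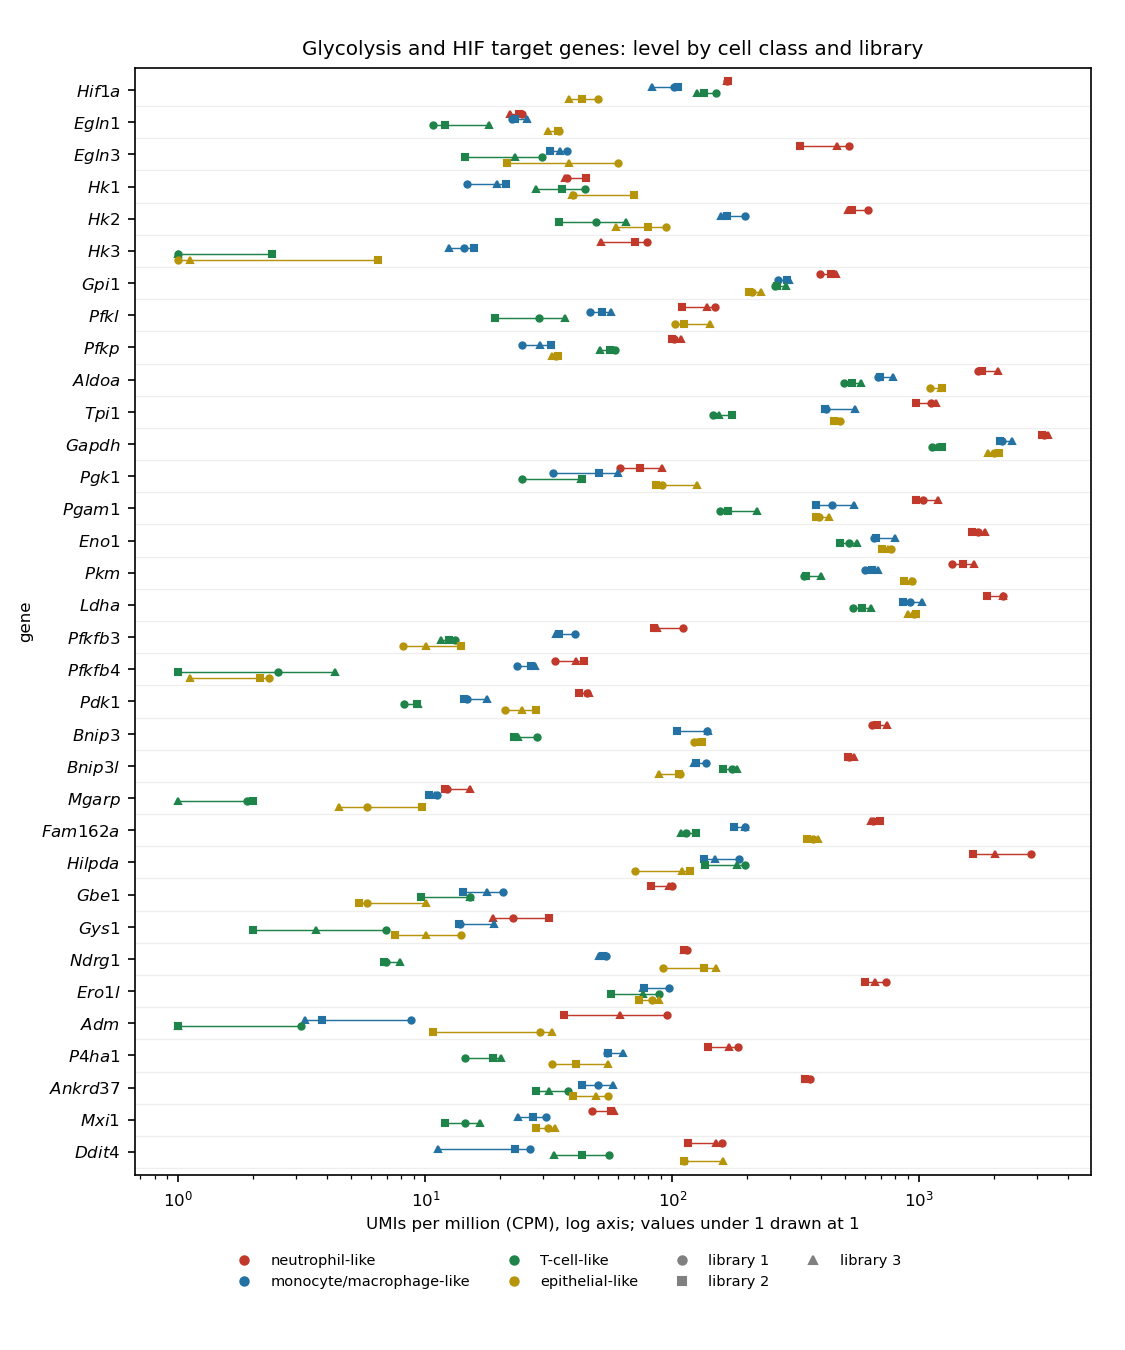
Level of each member in CPM (log axis) in 4 cell classes, 1 point per library, with lines from the lowest to the highest library. Neutrophil-like points stand to the right of the others for most members; Hilpda stands at 2820.4, 1645 and 2035 there in libraries 1, 2 and 3, and Egln1, Hk1, Pgk1 and Ndrg1 do not follow the pattern.

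Differences between classes were tested on the sums with edgeR's quasi-likelihood test, with the library as a block, TMM scaling and Benjamini-Hochberg adjustment over all 9436 genes tested; a gene was called at an adjusted p under 0.05. All 34 members were among the genes tested. Against monocyte/macrophage-like barcodes, 32 members were called higher and 0 lower, where 29.8% of all genes tested were called higher and 36.6% lower. The median log2 difference was 1.56 over the members and -0.14 over all genes. Egln1 (0.18 ± 0.19, log2 difference ± SE) and Mgarp (0.51 ± 0.25) were not called. Against T-cell-like barcodes 33 were called higher and 0 lower (all genes 32.3% and 32.7%), with a median of 2.74 over the members, and Hk1 was not called. Against epithelial-like barcodes 29 were called higher and 0 lower (all genes 34.1% and 37.1%), with a median of 1.54. Egln1, Hk1, Pgk1, Ndrg1 and Ddit4 were not called in that comparison. Of these, Ddit4 was called higher under 5 alternatives, including without library 2 (log2 0.56) and without library 3 (0.62), and with library totals Egln1 (-0.54, adjusted p = 0.0381, edgeR) and Pgk1 (-0.44, adjusted p = 0.0108) were called lower. Scaling by library totals moved the median of all genes from -0.14 to -0.34 against monocyte/macrophage-like barcodes, and the median of the members from 1.56 to 1.35. The classes were set from other genes of the same barcodes.

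**Figure D2:**
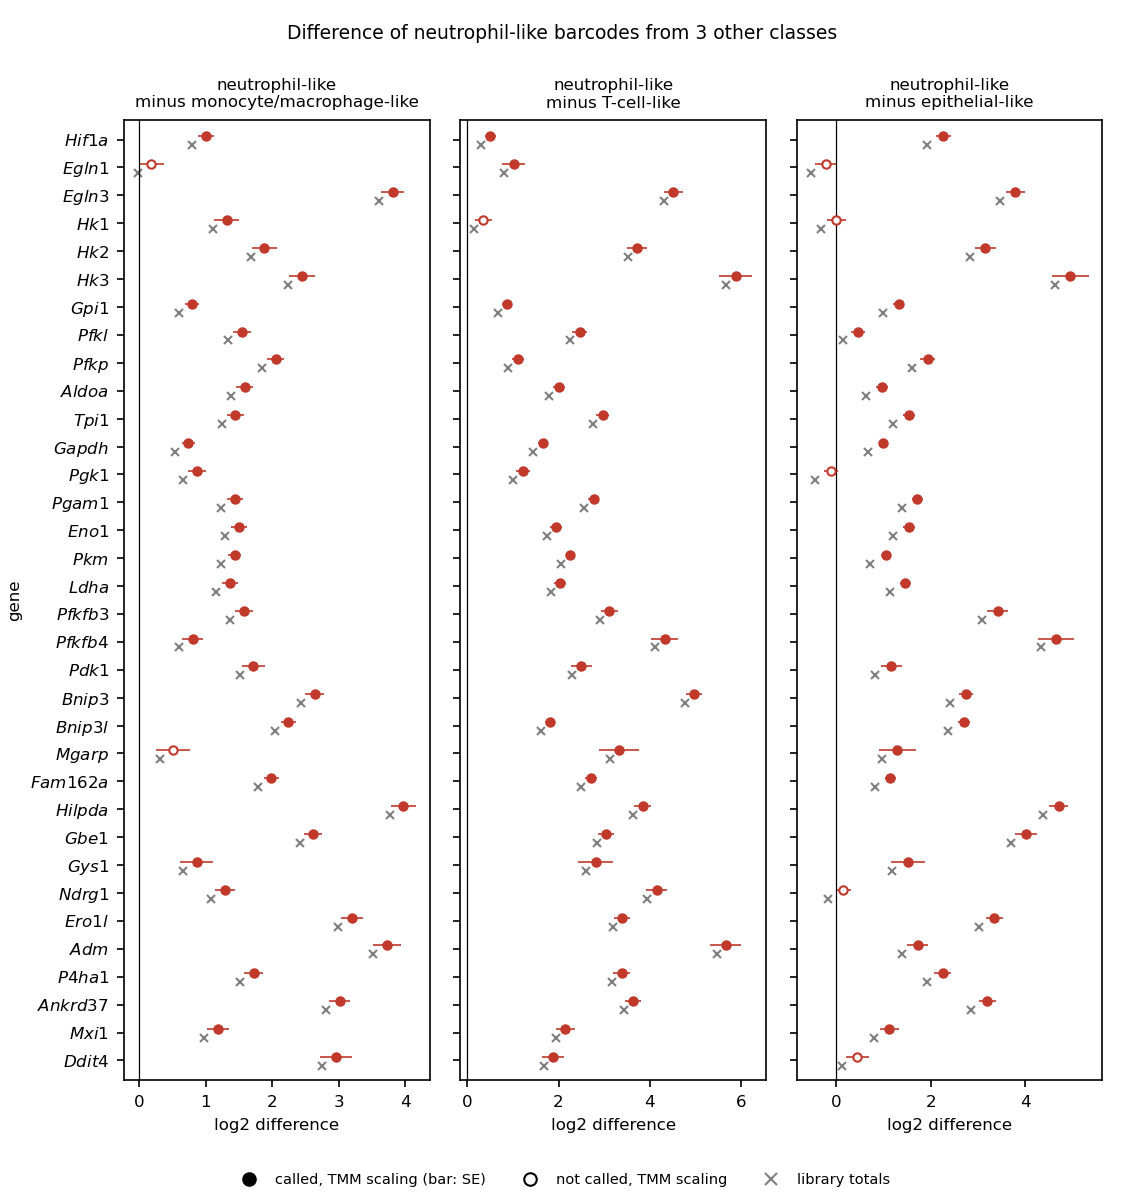
Log2 difference of each member between neutrophil-like barcodes and 3 other classes (1 panel each; bars are SE; filled circles passed the test, open circles did not; crosses are the same differences scaled by library totals). All filled circles lie right of 0, with Hilpda, Egln3, Adm and Hk3 among the farthest.

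The oxygen-sensing genes differed among themselves. Hif1a, which encodes the regulated HIF-1 subunit (chr12:73901375-73947530, plus strand), stood at 166, 168 and 166 CPM in neutrophil-like barcodes of libraries 1, 2 and 3. It stood at 149.9, 134 and 126 in T-cell-like, 102, 105 and 82.8 in monocyte/macrophage-like and 49.98, 42.9 and 38.004 in epithelial-like barcodes. The groups did not overlap, but the difference from T-cell-like barcodes was small (log2 0.51 ± 0.13, adjusted p = 0.000751, edgeR) beside that from epithelial-like barcodes (2.27 ± 0.16, adjusted p = 5.14e-14). In UMIs per barcode Hif1a was lower in neutrophil-like than in T-cell-like barcodes in every library. Egln3, a prolyl hydroxylase that is itself a HIF target (chr12:54178981-54203860, minus strand), stood at 518, 329.7 and 466 CPM in neutrophil-like barcodes, 37.6, 31.8 and 35.2 in monocyte/macrophage-like, 29.6, 14.4 and 23.1 in T-cell-like and 60.4, 21.5 and 38.004 in epithelial-like barcodes. All neutrophil-like libraries were far above the rest, and the fitted difference from monocyte/macrophage-like barcodes was 14.1-fold (log2 3.82 ± 0.17, adjusted p = 3.44e-18, edgeR). Egln1, the main oxygen sensor of most cells, stood at 23.5 ± 1.29 CPM (SD, n = 3) in neutrophil-like barcodes, 23.7 ± 1.79 in monocyte/macrophage-like and 33.5 ± 1.93 in epithelial-like barcodes, where every library lay above the neutrophil-like ones. With TMM scaling it was called only against T-cell-like barcodes (13.6 ± 3.89 CPM, log2 1.01 ± 0.24) among these 3 comparisons.

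Hexokinases start glycolysis by phosphorylating glucose, and Hk2 is the inducible form. Hk2 (chr6:82725025-82774454, minus strand) stood at 619, 532 and 515 CPM in neutrophil-like barcodes, 197, 166 and 157 in monocyte/macrophage-like, 49.1, 34.8 and 64.8 in T-cell-like and 94.2, 79.4 and 59.2 in epithelial-like barcodes. The neutrophil-like libraries were above all others, by 3.69-fold in the fit against monocyte/macrophage-like barcodes (adjusted p = 2.26e-10, edgeR). Hk3, the hexokinase typical of myeloid cells, stood at 78.7, 70.7 and 51.5 CPM in neutrophil-like barcodes and 14.3, 15.8 and 12.4 in the monocyte/macrophage-like class, and at 0.630, 2.40 and 0 in T-cell-like barcodes. S100a9, an abundant neutrophil transcript, stood in T-cell-like barcodes at 1.42% of its neutrophil-like level. Applied to Hk3, this ratio gives 0.946 CPM in T-cell-like barcodes, against the 1.01 measured. Whether such counts come from free neutrophil RNA or from undetected doublets was not tested. Hk1, the housekeeping form, stood at 37.4, 44.7 and 36.8 CPM in neutrophil-like and 44.1, 35.6 and 28.1 in T-cell-like barcodes, which overlapped, and was higher than in monocyte/macrophage-like barcodes (14.8, 21.2 and 19.5; log2 1.31 ± 0.18). Hk1 was not called against the epithelial-like class (0.00 ± 0.20).

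The 11 further glycolytic enzymes were called higher than in monocyte/macrophage-like barcodes without exception (log2 0.74 to 2.05, median 1.43) and likewise against T-cell-like barcodes (0.87 to 2.97, median 2.002). Against epithelial-like barcodes 10 of the 11 were called higher, and Pgk1, phosphoglycerate kinase, was not (-0.11 ± 0.15). Pfkl, the liver-type phosphofructokinase, passed that test by a small margin (log2 0.47 ± 0.14), but its CPM overlapped, at 149, 109.6 and 139 in neutrophil-like and 102, 112 and 142 in epithelial-like barcodes, and it was not called with library totals (0.14), with DESeq2 (0.34), without library 1 (0.37) or with stricter barcode limits (0.19). Pfkp, the platelet-type phosphofructokinase, had the widest difference of the 11 from monocyte/macrophage-like barcodes, with 101, 99.5 and 108 CPM against 24.6, 32.1 and 28.98. Ldha, which turns pyruvate into lactate, stood at 2182, 1881 and 2176 CPM in neutrophil-like barcodes, 917, 859 and 1021 in monocyte/macrophage-like, 538, 585 and 635 in T-cell-like and 954, 965 and 896 in epithelial-like barcodes. The neutrophil-like libraries of Ldha were above all others, at 2.57-fold in the fit against monocyte/macrophage-like barcodes. Gapdh, the triose dehydrogenase, differed least from that class, with 3185, 3148 and 3313 against 2163, 2114 and 2378 CPM (log2 0.74 ± 0.10). Aldoa, Tpi1, Gapdh, Pgk1, Pgam1, Eno1, Pkm and Ldha are known to have near-identical copies in the mouse genome, so their counts depend on how shared reads were assigned, a step on which the sources used here are silent. The annotated copy Eno1b held 10.4 ± 1.06 CPM in neutrophil-like barcodes beside 1737 ± 101 of Eno1.

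By CPM the genes that set the rate of glycolysis were higher in neutrophil-like barcodes too. Pfkfb3 and Pfkfb4 encode enzymes that make and remove fructose 2,6-bisphosphate, the activator of phosphofructokinase, and Pdk1 encodes a kinase that holds pyruvate back from mitochondria. Pfkfb3 stood at 111, 84.6 and 86.8 CPM in neutrophil-like barcodes, 40.5, 34.6 and 33.7 in monocyte/macrophage-like and 8.14, 13.96 and 10.1 in epithelial-like barcodes. Pfkfb4 stood at 33.5, 43.7 and 40.8, 23.5, 26.8 and 27.8 and 2.32, 2.15 and 1.12 CPM in the same classes, and at 2.52, 0.801 and 4.32 in T-cell-like barcodes. The 2 myeloid classes were thus closer for Pfkfb4 (log2 0.80 ± 0.16) than for Pfkfb3 (1.58 ± 0.13), a difference between genes that was not tested. Pdk1 was 3.29-fold higher than in monocyte/macrophage-like and 2.24-fold higher than in epithelial-like barcodes. In UMIs per barcode Pfkfb3, Pfkfb4 and Pdk1 were lower than in the monocyte/macrophage-like class in every library.

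Genes of mitophagy and mitochondria form the next group. Bnip3 and Bnip3l encode paired receptors that mark mitochondria for autophagy. Bnip3 (chr7:138890836-138909519, minus strand) stood at 646, 672 and 738 CPM in neutrophil-like barcodes, 138, 105 and 139 in monocyte/macrophage-like, 28.3, 22.8 and 23.8 in T-cell-like and 122, 132 and 126 in epithelial-like barcodes. The T-cell-like libraries were the lowest of these, and the fitted difference from them was 31.6-fold (log2 4.98 ± 0.18, adjusted p = 4.48e-21, edgeR). Bnip3l stood at 522, 514 and 542, 137, 124 and 122, 174, 160.1 and 182 and 107, 106 and 88.3 CPM in these 4 classes. In T-cell-like barcodes Bnip3l thus stood above its level in epithelial-like barcodes, unlike Bnip3. Fam162a, a mitochondrial protein gene induced by HIF, stood at 648, 690.2 and 636 CPM in neutrophil-like barcodes and 197, 178 and 197 in the monocyte/macrophage-like class (3.97-fold). Mgarp, whose protein sits in mitochondria, was low throughout, with 12.2, 12.02 and 15.1 CPM in neutrophil-like barcodes and 11.2, 10.3 and 10.9 in the monocyte/macrophage-like class, and its difference from T-cell-like barcodes (3.33 ± 0.44) rests on 1.89, 2.002 and 0 CPM in that class.

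The genes for lipid droplets and glycogen included the widest difference from monocyte/macrophage-like barcodes. Hilpda encodes a small lipid-droplet protein that restrains the lipase ATGL (chr6:29272488-29275446, plus strand). It stood at 2820.4, 1645 and 2035 CPM in neutrophil-like barcodes, 186, 135 and 149 in monocyte/macrophage-like, 198, 136 and 183 in T-cell-like and 70.9, 118 and 109.5 in epithelial-like barcodes. The classes did not overlap with the neutrophil-like class, whose lowest value was in library 2. The fitted difference was 15.7-fold against monocyte/macrophage-like (log2 3.98 ± 0.19, adjusted p = 5.76e-18, edgeR) and 26.2-fold against epithelial-like barcodes (adjusted p = 5.55e-19). At 600 UMIs per barcode, 33.9% ± 7.58 of neutrophil-like barcodes held a Hilpda UMI, against 6.47% ± 1.16 of monocyte/macrophage-like and 7.63% ± 1.45 of T-cell-like barcodes; without thinning these shares were 36.9%, 28.5% and 16.4%. Scaled by the S100a9 ratio of each class, the neutrophil-like level gives 56.3 ± 20.2 CPM beside the 157 ± 26.8 measured in monocyte/macrophage-like barcodes. It gives 31.0 ± 9.94 beside the 172 ± 32.2 measured in T-cell-like barcodes. Gbe1, the glycogen branching enzyme, stood at 99.9, 82.2 and 97.1 CPM in neutrophil-like barcodes and 20.6, 14.1 and 17.7 in the monocyte/macrophage-like class. Gys1, glycogen synthase, was low and close in these 2 classes (22.6, 31.7 and 18.8 against 13.9, 13.7 and 18.9 CPM, which overlapped), although it passed the test (log2 0.87 ± 0.25).

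The remaining 7 members serve protein folding, growth control and vessels. All 7 were called higher than in monocyte/macrophage-like and T-cell-like barcodes, and 5 of the 7 than in epithelial-like barcodes. Ero1l, the older name of Ero1a, an oxidase for disulfide bonds in the endoplasmic reticulum, stood at 732, 600.3 and 661 CPM in neutrophil-like barcodes, 96.8, 76.5 and 75.7 in monocyte/macrophage-like, 88.2, 56.4 and 76.4 in T-cell-like and 82.5, 73.01 and 88.3 in epithelial-like barcodes. Ankrd37, an ankyrin-repeat protein gene induced by HIF, stood at 360.4, 343 and 347, 50.1, 43.2 and 57.7, 37.8, 28.02 and 31.7 and 54.6, 39.7 and 49.2 CPM in the same order. For both genes the 3 non-neutrophil classes lay close together. Adm, which encodes the vasodilator peptide adrenomedullin, stood at 95.4, 36.5 and 61.4 CPM in neutrophil-like barcodes, 8.72, 3.83 and 3.25 in monocyte/macrophage-like and 29.1, 10.7 and 32.4 in epithelial-like barcodes. Its T-cell-like values of 3.15, 0.400 and 0.720 average 1.42, and the level that the S100a9 ratio gives is 0.927. Ddit4, a stress-induced inhibitor of mTORC1, stood at 159, 116 and 150.1 CPM in neutrophil-like barcodes, 26.6, 22.98 and 11.2 in monocyte/macrophage-like, 55.4, 43.2 and 33.1 in T-cell-like and 112, 112 and 161 in epithelial-like barcodes, where it overlapped. Ndrg1, a stress-responsive growth regulator, likewise overlapped with the epithelial-like class (114, 111 and 111 against 91.8, 134 and 151 CPM) and was lowest in T-cell-like barcodes (6.93, 6.81 and 7.92). P4ha1, a subunit of the collagen prolyl hydroxylase, was 10.5-fold higher than in T-cell-like barcodes (184, 139 and 170.3 against 14.5, 18.8 and 20.2 CPM). Mxi1, a repressor of MYC targets, was 2.27-fold higher than in monocyte/macrophage-like barcodes.

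The choice of paralog within a gene pair can be read without scaling between classes, as a share of the UMIs of the pair. Hk2 made up 83.9% ± 1.61 (SD, n = 3 libraries) of hexokinase UMIs in neutrophil-like barcodes and 84.02% ± 2.79 in the monocyte/macrophage-like class, but 56.6% ± 11.6 in T-cell-like and 60.3% ± 9.72 in epithelial-like barcodes, where Hk1 took most of the rest. Egln3 made up 95.5, 93.2 and 95.5% of the UMIs of Egln1 and Egln3 in the 3 neutrophil-like sums and 62.7, 58.1 and 57.8% in the monocyte/macrophage-like sums. The neutrophil-like shares of Egln3 were above those of the other 3 classes plotted in every library. Bnip3 made up 56.6% ± 1.18 of the UMIs of Bnip3 and Bnip3l in neutrophil-like, 55.9% ± 2.80 in epithelial-like and 12.7% ± 1.25 in T-cell-like barcodes. Pfkl made up 56.04% ± 3.56 of phosphofructokinase UMIs from Pfkl and Pfkp in neutrophil-like, 77.7% ± 3.28 in epithelial-like and 33.5% ± 8.14 in T-cell-like barcodes. Pfkfb3 made up 70.2% ± 5.77 of its pair with Pfkfb4 in neutrophil-like barcodes and 58.1% ± 4.52 in the monocyte/macrophage-like class. These shares are descriptions and were not tested.

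**Figure D3:**
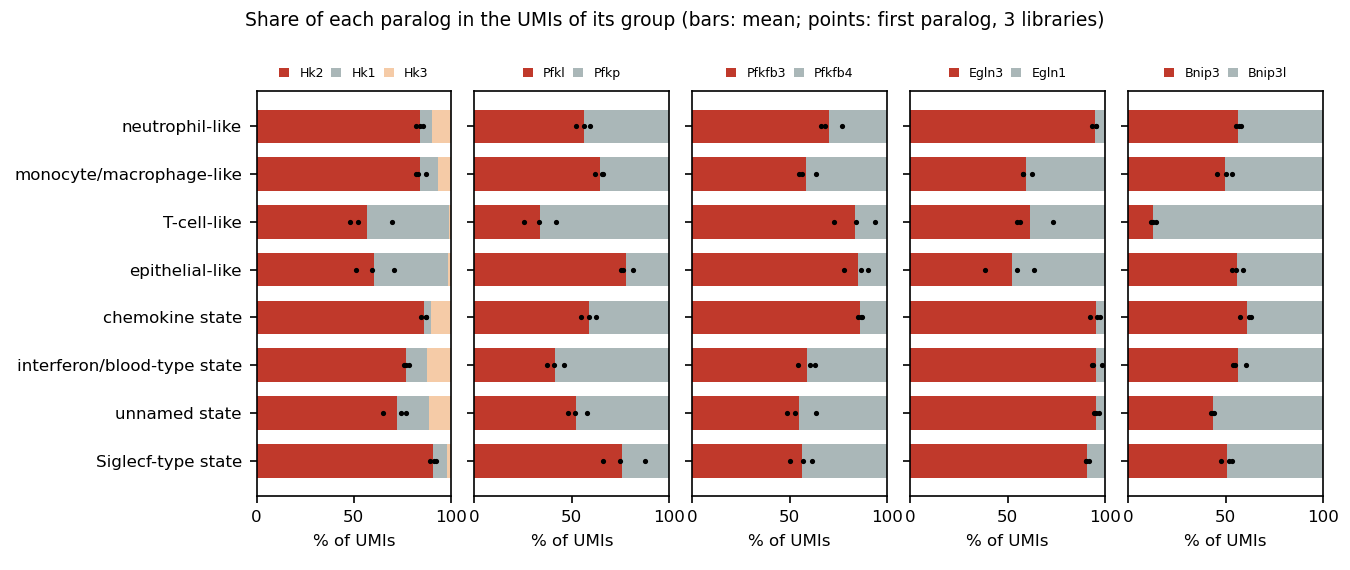
Share of each paralog in the UMIs of its group, in percent, for 4 cell classes and 4 neutrophil states (stacked bars are means over 3 libraries; points are the first paralog in each library). Egln3 fills nearly the whole bar in the neutrophil-like class and its states, and Bnip3 is smallest in T-cell-like barcodes.

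The members' level also differed between states within the neutrophil-like class. Subclusters made without these genes gave 4 states with at least 20 barcodes in every library: a chemokine state (1634 barcodes, led by Ccdc126, Cxcl3 and Ankrd33b), a mixed interferon/blood-type state (1521, led by Cxcl10, Ifitm6 and Retnlg), a Siglecf-type state (1216, led by H1f0, Mt1 and Gpr171, with Ltc4s and Siglecf) and a state that no marker set named (1786, led by Serf1, Naip2 and Clec5a). A further 22 barcodes, led by the T-cell genes Trbc2, Ccl5 and Cd3e, were too few to test as a state but count in the neutrophil-like class. The interferon/blood-type state passed 7 of 8 interferon markers and 4 of 8 markers of blood neutrophils, and at a higher subcluster resolution it divided into an interferon subset (861 barcodes, 795 of them from this state) and a blood-type subset (861 barcodes, 700 of them from it). The members took 3.03%, 3.53% and 3.57% of the UMIs of the chemokine state in libraries 1, 2 and 3. They took 1.98%, 1.42% and 1.99% in the Siglecf-type state, 1.36%, 1.40% and 1.43% in the interferon/blood-type state and 1.07%, 1.11% and 1.16% in the unnamed state. The chemokine state overlapped with no other. Median UMIs per barcode were 1084, 879.5, 970 and 751.5 in the same order, the unnamed state being the shallowest, and median mitochondrial shares were 0.490%, 0.832%, 0.510% and 0.399%. The summed level of 10 neutrophil markers ranged from 25708 to 31545 CPM in the Siglecf-type state, 42544 to 48587 in the unnamed, 60179 to 70147 in the chemokine and 113779 to 140607 in the interferon/blood-type state, so the states differ in how much of their RNA a few genes take. The part of these differences in the results was not tested.

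**Figure D4:**
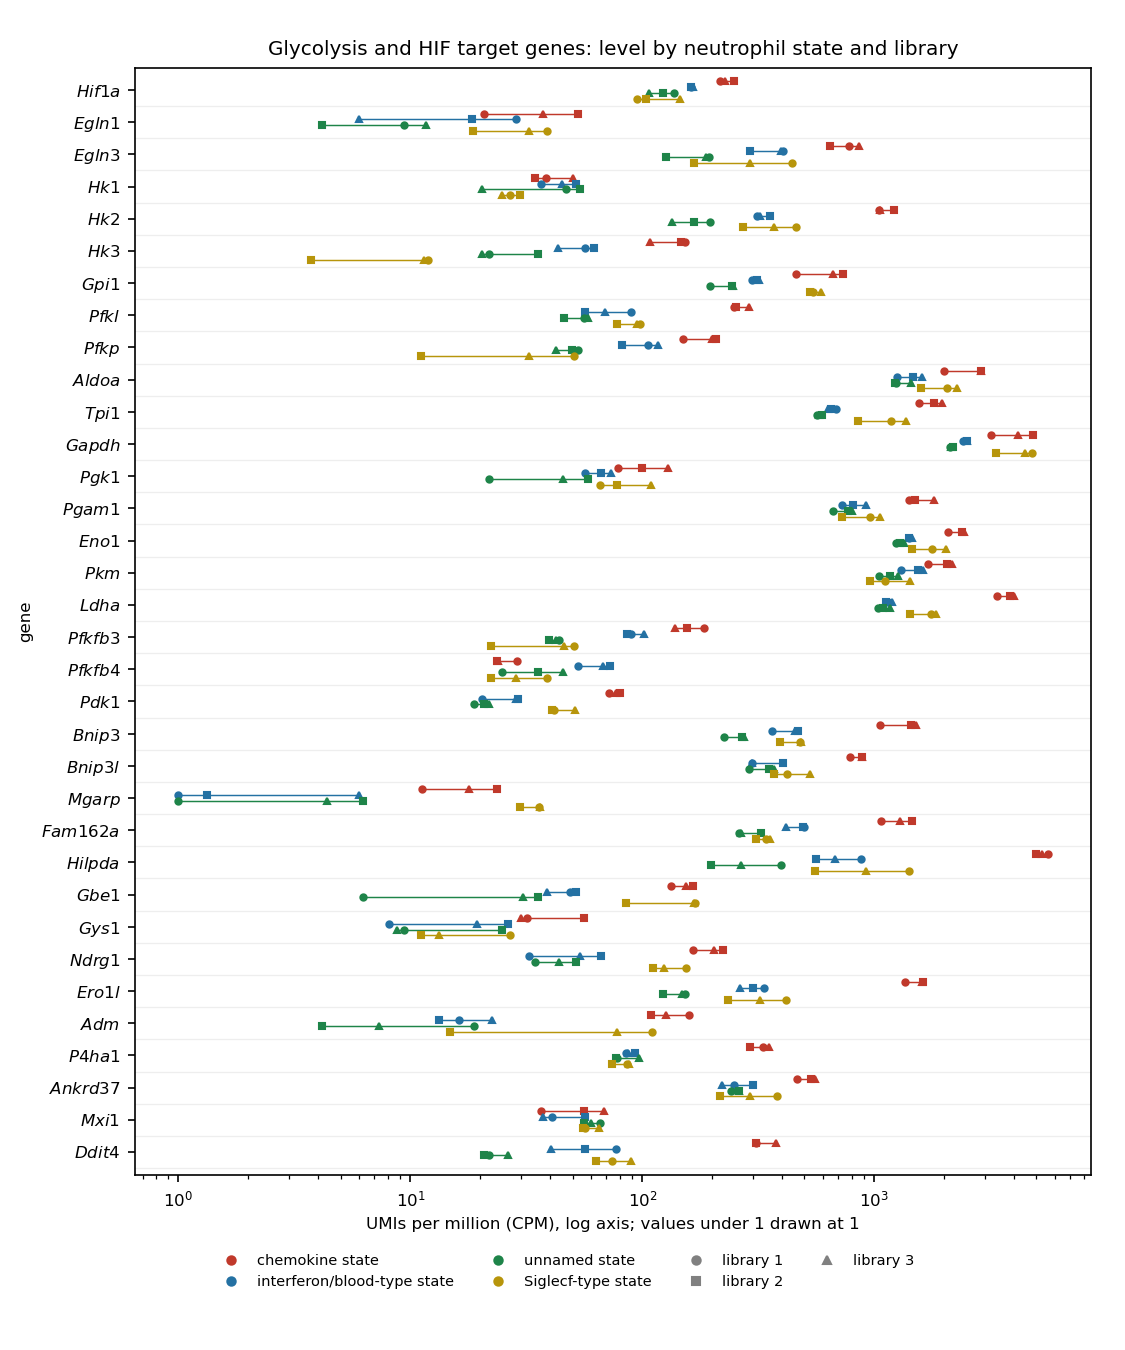
Level of each member in CPM (log axis; values under 1 are drawn at 1) in 4 neutrophil states, 1 point per library, with lines from the lowest to the highest library. The chemokine state is the rightmost for 29 members; Pfkfb4 and Hk1 are highest on average in the interferon/blood-type state, Mgarp and Gapdh in the Siglecf-type state and Mxi1 in the unnamed state.

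By CPM 29 of the 34 members were highest in the chemokine state (14.5% of the genes tested between states), 23 of them with all 3 libraries above every library of the other states (8.14%), and 24 were lowest in the unnamed state (5.53%). By UMIs per barcode 32 were highest in the chemokine state (22.8%). Each state was compared with the mean of the other 3 by the same edgeR test over 5465 genes, which held all 34 members. In the chemokine state 33 members were called higher and 0 lower, where 30.6% of all genes were called higher and 24.4% lower. In the unnamed state 0 were called higher and 31 lower (all genes 16.2% and 18%). In the Siglecf-type state 3 were called higher and 23 lower (27.9% and 29.7%), and in the interferon/blood-type state 8 and 9 (22% and 18.8%). The states were set from other genes of the same barcodes, which may vary together with the members, so these calls describe the states over 3 libraries and are no independent test of them.

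Scaling mattered more between states than between classes. With TMM scaling the median log2 difference of all genes in the chemokine state was -0.04, and with library totals -0.71. The members' median was 1.95 and 1.28, and Mxi1 went from 0.67 to -0.00040 on the log2 scale. With library totals 31 members were called higher and 1, Pfkfb4, lower, where 885 of 5465 genes were called higher and 3207 lower. In the Siglecf-type state library totals gave 10 members higher and 9 lower, where 2775 of the 5465 genes were called higher and 829 lower. CPM values below are scaled by library totals and the log2 differences by TMM.

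**Figure D5:**
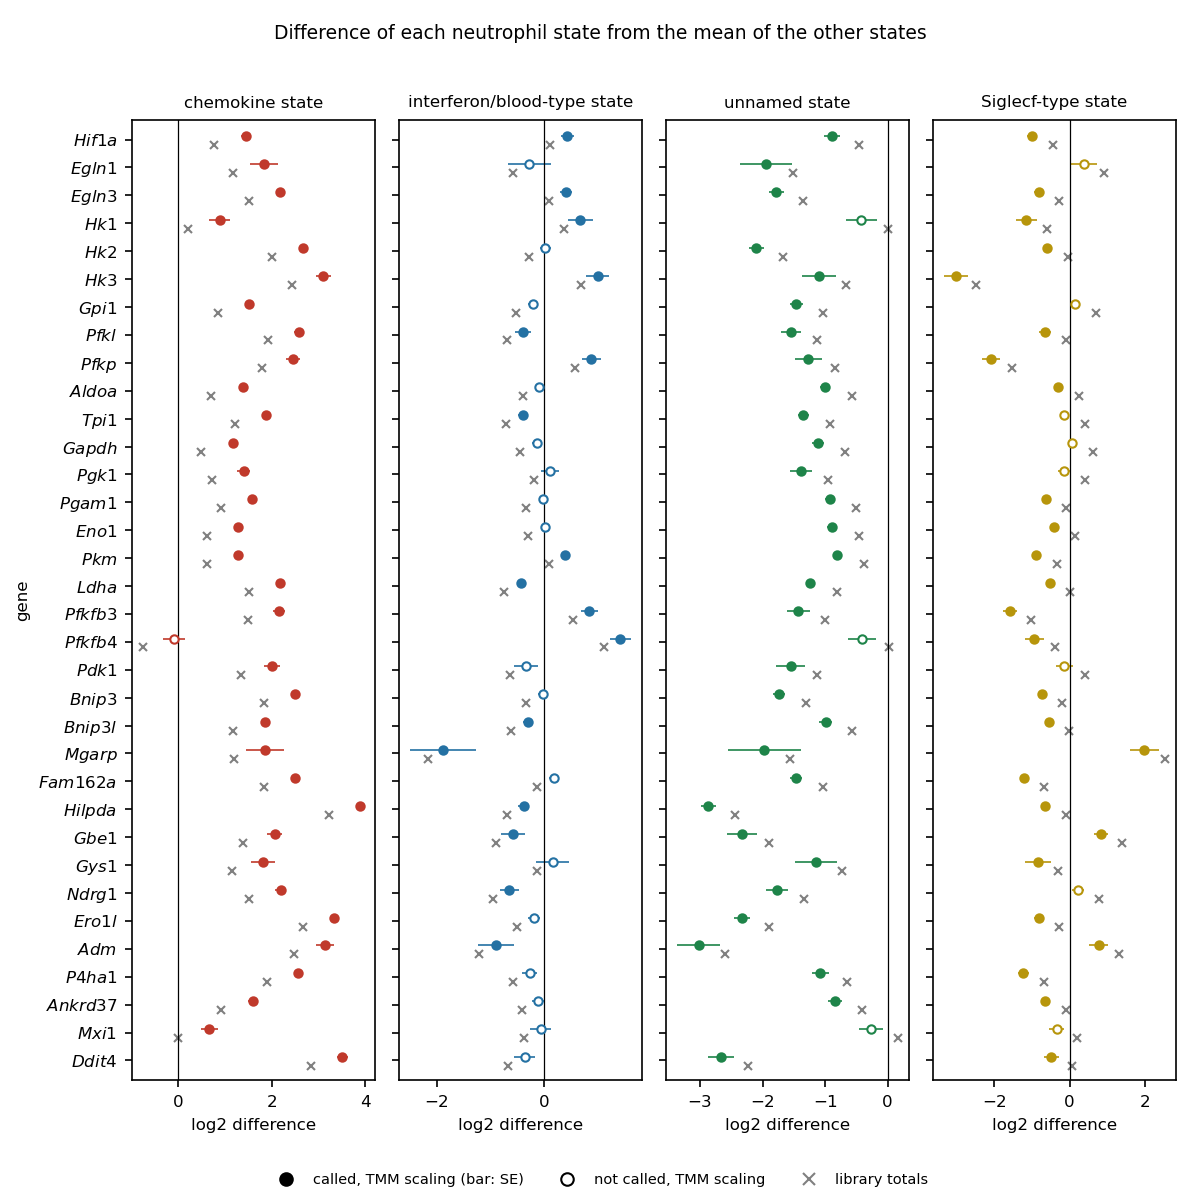
Log2 difference of each member between a neutrophil state and the mean of the other 3 states (1 panel per state; bars are SE; filled circles passed the test, open circles did not; crosses are scaled by library totals). In the chemokine state Pfkfb4 is the 1 open circle; in the unnamed state all circles lie left of 0; the crosses stand to the left of the circles in the chemokine state and to the right in the Siglecf-type state.

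The lipid-droplet gene Hilpda had the widest difference. It stood at 5600.4, 4965 and 5268 CPM in the chemokine state, 1409, 553 and 919 in the Siglecf-type, 877, 563 and 675 in the interferon/blood-type and 396, 198 and 267 in the unnamed state. Every chemokine library was above every library of the other states, and the fitted difference was 14.8-fold (log2 3.89 ± 0.08, adjusted p = 1.33e-30, edgeR). At 600 UMIs per barcode 77.4% ± 2.83 of chemokine-state barcodes held a Hilpda UMI, against 18.6% ± 7.01 in the Siglecf-type, 19.6% ± 4.24 in the interferon/blood-type and 10.4% ± 2.03 in the unnamed state. The stress genes Ddit4 and Ero1l came next. Ddit4 stood at 309.5, 310.002 and 376 CPM in the chemokine state and at 21.8, 20.8 and 26.3 in the unnamed state. Ero1l stood at 1351, 1621 and 1605 and 153, 123 and 148 CPM in the same states. Both were lower in every library of the other 3 states than in any chemokine library, with fitted differences of 11.4-fold and 10.04-fold.

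Hexokinases and phosphofructokinases split the states in more than one way. Hk2 stood at 1047, 1211 and 1061 CPM in the chemokine state, 458, 271 and 369.8 in the Siglecf-type, 313, 356 and 320.3 in the interferon/blood-type and 197, 166 and 134 in the unnamed state. Hk3 was also highest in the chemokine state (153, 147 and 108), but was lowest in the Siglecf-type state (11.9, 3.71 and 11.4), below the interferon/blood-type (56.9, 62.1 and 43.4) and unnamed states (21.8, 35.3 and 20.5). Its fitted difference in the Siglecf-type state was log2 -3.01 ± 0.31 (adjusted p = 2.05e-10, edgeR). Pfkp followed the same order, with 149.98, 208 and 200.2 CPM in the chemokine and 50.5, 11.1 and 32.4 in the Siglecf-type state (log2 -2.07 ± 0.24). Pfkl did not: it stood at 249, 254 and 288 in the chemokine, 98.1, 77.9 and 95.3 in the Siglecf-type and 56.1, 45.7 and 58.4 in the unnamed state. Of the UMIs of Pfkl and Pfkp, Pfkl therefore took 76.04% ± 10.8 in the Siglecf-type state and 41.3% ± 4.38 in the interferon/blood-type state. Hk1 was called higher in the chemokine state by the smallest margin of the hexokinases (0.89 ± 0.23). It was not called with library totals (0.23), without library 3 (0.45) or with stricter barcode limits (0.16). Its libraries overlapped between the chemokine (38.3, 34.4 and 50.3) and interferon/blood-type states (36.6, 51.6 and 44.9). Under the stricter limits the chemokine state held 492 barcodes, 365 of them from the main chemokine state, or 22.3% of that state. No unnamed state was among the states it was compared with there.

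The 11 further glycolytic enzymes were called higher in the chemokine state and lower in the unnamed state without exception, with log2 differences of 1.17 to 2.59 and of -1.55 to -0.80. Ldha was the clearest of the abundant ones. It stood at 3398, 3849 and 3992 CPM in the chemokine state, against 1763, 1429 and 1837 in the Siglecf-type, 1146, 1128 and 1197 in the interferon/blood-type and 1036, 1087 and 1172 in the unnamed state, with no overlap of the chemokine state with the others. Gapdh showed how scaling enters: it stood at 3172, 4817 and 4181 CPM in the chemokine and 4802, 3340.4 and 4469.8 in the Siglecf-type state, which overlapped. Gpi1, glucose-6-phosphate isomerase, overlapped between these states as well (459.5, 734 and 665 against 544, 527 and 587). In the Siglecf-type state 7 of the 11 were called lower under TMM scaling, but with library totals Aldoa, Eno1 and Ldha had differences above 0 there.

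Among the regulators, Pfkfb3 and Pfkfb4 went apart. Pfkfb3 stood at 185, 156 and 138 CPM in the chemokine and 89.4, 85.95 and 102 in the interferon/blood-type state, and at 43.7, 39.5 and 42.4 in the unnamed and 50.5, 22.3 and 45.7 in the Siglecf-type state. Pfkfb4 was the 1 member not called in the chemokine state (-0.08 ± 0.24, adjusted p = 0.792, edgeR). Its CPM there were 28.7, 23.6 and 23.97, below all 3 libraries of the interferon/blood-type state (52.8, 72.7 and 67.4), in which it was called higher (log2 1.42 ± 0.20, adjusted p = 2.11e-07, edgeR). Pfkfb4 took 40.9% ± 4.45 of the UMIs of the pair in the interferon/blood-type state and 13.8% ± 0.898 in the chemokine state. At the higher resolution Pfkfb4 stood at 54.2, 62.9 and 81.8 CPM in the blood-type subset (log2 1.40 ± 0.25, adjusted p = 5.89e-06, edgeR) and 39.8, 72.2 and 55.1 in the interferon subset (0.89 ± 0.25, adjusted p = 0.0062, edgeR), which overlapped. Stricter barcode limits (500 genes or more, 5% mitochondrial UMIs or less) gave a blood-type cluster, in which it was called (0.97 ± 0.27). In the interferon cluster it was not called (-0.017 ± 0.36). That cluster held 364 barcodes, of which 173 were from the mixed state, or 11.4% of the barcodes of that state. Pdk1 kept the order of most members (71.8, 79.8 and 76.7 CPM in the chemokine and 18.7, 20.8 and 21.9 in the unnamed state).

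The mitophagy receptors, oxygen sensors and most other stress genes were highest on average in the chemokine state, some with overlap. Bnip3 stood at 1061, 1447 and 1509 CPM in the chemokine, 479, 393 and 482 in the Siglecf-type, 362, 468 and 457 in the interferon/blood-type and 225, 270.3 and 275 in the unnamed state. Fam162a stood at 1072, 1459 and 1294 in the chemokine state, and at 499.7, 492 and 416 in the interferon/blood-type and 342, 308 and 355 in the Siglecf-type state, which did not overlap, whereas those of Bnip3 did. P4ha1 stood at 330.3, 292 and 351 CPM in the chemokine state and between 74.2 and 96.4 in every library of the other states. Adm stood at 159.6, 109 and 127 in the chemokine state, at 110.01, 14.8 and 78.2 in the Siglecf-type state and at 18.7, 4.16 and 7.31 in the unnamed state. The Siglecf-type libraries of Adm spread widely, with 1 of them beside the unnamed state and 1 at the lower edge of the chemokine state. Ndrg1 stood at 166, 223 and 204 CPM in the chemokine, 155, 111 and 124 in the Siglecf-type and 34.3, 51.98 and 43.8 in the unnamed state. Egln3 stood at 779, 645 and 863 in the chemokine and 193, 127 and 188 in the unnamed state. Egln1 stood at 20.7, 52.6 and 37.2 in the chemokine and 9.36, 4.16 and 11.7 in the unnamed state. Its chemokine libraries overlapped with the Siglecf-type (38.7, 18.6 and 32.4) and interferon/blood-type states (28.4, 18.5 and 5.99). Hif1a itself had a narrower range, from 215, 248 and 227 CPM in the chemokine state to 95.1, 104 and 145 in the Siglecf-type and 137, 123 and 107 in the unnamed state. Its log2 difference in the chemokine state was 1.45 ± 0.11. With the stricter barcode limits, where that state kept 22.3% of its main barcodes and no unnamed state was among the others, it was 0.29 and not called. These values are of the transcript, and the data do not measure the HIF protein, whose stability oxygen sets.

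Mgarp, Gbe1 and Adm, the members called higher in the Siglecf-type state, were also among the leading genes of a small group of barcodes. At the higher subcluster resolution, 129 barcodes (58, 19 and 52 by library) led by Hspa1a, Mgarp, Adm and Gbe1 formed a group of their own, 109 of them from the Siglecf-type state, in which 3 of 5 heat-shock markers passed. This group was not tested, since 1 library held under 20 barcodes. In it 24 of the 34 members were above the other neutrophil-like barcodes in all 3 libraries and 1 was below, where 16.6% of all genes were above and 27% below. Mgarp stood at 212, 108 and 235 CPM in the group and at 5.41, 11.3 and 10.5 in the other neutrophil-like barcodes. Adm stood at 597, 324 and 596 against 78.5, 34.3 and 50.5, and Gbe1 at 655, 487 and 704 against 81.2, 78.9 and 84.7. Gpi1 stood at 1406, 3029 and 2563 against 361, 413 and 415. The library 2 values rest on few UMIs, such as 2 of Mgarp and 6 of Adm. Without these barcodes the Siglecf-type state held 20.5, 3.91 and 16.8 CPM of Adm and 517, 235 and 411 of Hilpda. In the refit 0 of the 33 members tested were called higher in that state and 27 lower (1604 and 1600 of 5409 genes). Mgarp was too low there to be tested. It still stood at 6.84, 23.5 and 14.7 CPM in the rest of the Siglecf-type state, against 0, 6.24 and 4.38 in the unnamed and 0, 1.32 and 5.99 in the interferon/blood-type state. This comparison was added after the data were seen.

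The interferon/blood-type state gave no settled count, and the calls in its interferon and blood-type parts changed with the setting. Both hexokinases other than Hk2 and both Pfkfb genes were among the 8 members called higher, and Mgarp and Ldha among the 9 lower. Differences of at least 1 on the log2 scale were limited to Pfkfb4, Hk3 (1.00 ± 0.22) and Mgarp (-1.88 ± 0.62, from 0, 1.32 and 5.99 CPM). Hk3 was not called without the highest doublet scores (0.72) or at resolutions 0.3 (0.40) and 0.8 (0.56), and Mgarp was not called without library 2 (-1.13). With library totals 4 were called higher and 21 lower (765 and 1986 of 5465 genes), and without library 3 the count of lower members was 3. With stricter barcode limits 20 of 31 members tested were higher and 0 lower in the interferon cluster (610 and 243 of 3537 genes). The blood-type cluster then had 1 and 8. At the higher resolution 8 of 33 were higher and 1 lower in the interferon subset (660 and 280 of 4833 genes). The blood-type subset had 13 and 0. Without the highest doublet scores the interferon subset had 1 and 6 (398 and 77 of 4473 genes), and the blood-type subset 11 and 4. All-gene counts are not given for the blood-type groups, so their counts of members cannot be set against a share of all genes. Interferon and blood-type groups were not compared with each other.

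The 63 other genes of these pathways, on a separate list that holds no member, went in both directions. Against monocyte/macrophage-like barcodes 23 of the 44 tested were called higher and 14 lower (all genes 29.8% and 36.6%). The counts were 27 and 9 against T-cell-like (32.3% and 32.7%) and 26 and 10 against epithelial-like barcodes (34.1% and 37.1%). Glucose and lactate transporters moved like the members: all 4 tested were higher than in T-cell-like and epithelial-like barcodes. Slc2a3, a high-affinity glucose transporter, stood at 32.2, 43.3 and 37.5 CPM in neutrophil-like barcodes and 5.59, 3.09 and 3.25 in the monocyte/macrophage-like class (log2 3.45 ± 0.27). Cited2, which competes with HIF for its coactivator, was 8.44-fold higher than in monocyte/macrophage-like barcodes, and Ppp1r3b, which targets a phosphatase to glycogen, 6.78-fold. Vegfa, the vessel growth factor, was higher than in T-cell-like barcodes by log2 5.50 ± 0.37. Ldhb, which encodes the other lactate dehydrogenase subunit, was lower than in monocyte/macrophage-like barcodes (5.80, 2.88 and 7.36 against 48.3, 50.1 and 56.5 CPM, log2 -3.04 ± 0.24), as was Rora (-2.78). Of the genes for the fate of pyruvate, 0 of 6 tested were called higher and 4 lower in that comparison. Against epithelial-like barcodes the lowest were Plod2 (log2 -6.82), Pgf (-3.64) and Aldoc (-3.31).

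Between states these genes split by function. In the chemokine state 17 of 33 tested were called higher and 5 lower (all genes 30.6% and 24.4%). All 4 transporters tested and 7 of 8 other HIF targets were higher, led by Vegfa (107, 131 and 116 CPM against 24.95, 24.9 and 16.1 in the unnamed state, log2 2.64 ± 0.16), Higd1a (2.51) and Bhlhe40 (2.49). The mitochondrial pyruvate carrier genes Mpc1 (-0.82 ± 0.20) and Mpc2 (-0.85 ± 0.16) and the pentose phosphate gene Pgls (-1.05 ± 0.20) were lower there. Of these, Mpc1 and Pgls were not called with the stricter barcode limits, where the chemokine state kept 22.3% of its main barcodes and no unnamed state was among the others. Those 3 were called higher in the Siglecf-type state, where Pgls had the largest difference (log2 1.16 ± 0.16). Of the 7 genes of the pentose phosphate pathway, which supplies NADPH, 3 were called higher in the interferon/blood-type state and 0 in the chemokine state. In the former, 4 of 5 glycogen genes and 3 of 4 transporters tested were called higher too, beside 22% of all genes. G6pdx, its first enzyme, stood at 24.4, 31.7 and 26.9 CPM in the interferon/blood-type state and 4.79, 7.25 and 5.99 in the chemokine state, and Taldo1 at 508, 508 and 599 and 163, 234 and 225, with no overlap for either. At the higher resolution G6pdx stood at 24.1, 49.8 and 40.9 CPM in the blood-type subset and 15.9, 11.3 and 10.5 in the interferon subset. Slc2a6 was the transporter with the largest difference in the interferon/blood-type state (7.99-fold over the mean of the other states, adjusted p = 3.08e-10, edgeR), at 44.7, 43.6 and 53.9 CPM, while the chemokine state held 28.7, 23.6 and 27.6.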

How the data were processed

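Single-cell UMI counts per gene and barcode were deposited by the authors as 3 sparse matrices, whole numbers and not normalized, with at least 500 UMIs in every barcode. Cell Ranger, Seurat and mm10 are named per the submitters' processing notes, with no versions; the matrix headers give 3.0.0 without naming the software, and a 5′ platform and a 3′ protocol both appear in the labels. Left out were 22 barcodes under 200 genes and 107 over 10% mitochondrial UMIs. Scrublet marked 2 barcodes (0.0140%), so the caller has not worked; an alternative left out the 568 highest scores. Clustering used 2000 variable genes without the members and other pathway genes, 30 principal components, 15 neighbours and Leiden resolution 1, or 0.5 within neutrophil-like barcodes (scanpy 1.11.5, igraph 0.11.9). Marker sets named a cluster where at least 3 markers passed. A cluster of 123 barcodes, in which 8 of 9 T-cell markers passed, was left unnamed because its median doublet score (0.223) was over 0.15. The 77 B or plasma-cell-like barcodes were too few to use.

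Counts were summed per library and class or state and tested with edgeR 4.0.16 (quasi-likelihood, TMM, filterByExpr, library as block); the 2 sums compared always share a library. The code was tested on simulated counts. Alternatives were library totals, DESeq2 1.42.0, no filter on low counts, each library left out, no block, stricter barcode limits, other resolutions and thinning. Members with values by library are those called with a log2 difference of at least 1 and the same direction of CPM in every library, up to 12 per comparison; other pathway genes are the 3 highest and 3 lowest such genes, of which 1 is not reported here. Further members are named for their role, after their values were seen. The members and lists were chosen with earlier results of these data known. Gene positions are from GENCODE M21 on GRCm38.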

Additional observations from a re-analysis of the deposited data

How the results depend on the processing

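Depth limits the states: neutrophil-like barcodes held few UMIs, several members have under 30 CPM in a state, and 3 libraries of 1 kind give no spread between animals that the labels name. In the 3 class comparisons and the chemokine and unnamed states, no alternative moved the main count of members (32, 33 and 29 higher, 33 higher, 31 lower) by over 1.5 times; leaving out a library gave 31 to 32, 33 to 34, 28 to 30, 31 to 33 and 28 to 31, and the fit without the replicate block gave 32, 33, 29, 33 and 31. With library totals 2 members were lower than in epithelial-like barcodes and 1 was lower in the chemokine state. Under stricter limits the chemokine state held 492 barcodes, 365 of them from its main barcodes (22.3% of the main state). There 26 of the 31 members tested were higher (582 of 3537 genes), with a members' median of log2 1.03 against 1.95 in the main fit. The other states there were a Siglecf-type, a blood-type and an interferon one, so the mean compared against is not that of the main fit. The unnamed state gave 29 lower without the highest doublet scores and 28 at resolution 0.8, where it held 70.3% of its main barcodes; under stricter barcode limits and at resolution 0.3 no unnamed state was tested. In the interferon/blood-type state the counts of higher and lower members (8 and 9) were 4 and 21 with library totals, 20 and 0 with stricter barcode limits, 1 higher without the highest doublet scores, and 4 and 18 at resolution 0.3. Its lower count was 5 with DESeq2 and 5 without the replicate block (7 higher) and 3 to 7 with a library left out (3 without library 3). It was 1 at resolution 0.8 and 3 without the Hspa1a subcluster. Without the highest doublet scores and at resolution 0.8 the state divided in 2, and these counts are those of the interferon subset alone. With stricter limits the counts are those of an interferon cluster of 364 barcodes. Only 173 of these came from the main interferon/blood-type state. In the Siglecf-type state 3 members higher became 10 with library totals, 1 without the highest doublet scores and 0 with stricter limits, at resolutions 0.3 and 0.8 and without the Hspa1a subcluster, and 23 lower became 9 with library totals. At resolution 0.3 this state held 2956 barcodes, of which 37.7% were from the main Siglecf-type state. With stricter limits it held 1272, of which 56.8% were. Other pathway genes lower than in monocyte/macrophage-like barcodes numbered 8 with stricter limits (main 14), and lower than in epithelial-like barcodes 16 with no filter (main 10). In the chemokine state 10 were higher with stricter limits (main 17), and 13 were lower with library totals and 3 at resolution 0.8 (main 5). The replicate block changed no other call of these counts by over 1.5 times. A single gene that turned was Mxi1 in the chemokine state (-0.00040 with library totals). Pfkfb4, called higher in the interferon/blood-type state, stood at -0.017 in the interferon cluster formed with stricter limits. In the Siglecf-type state those that turned were Mgarp (-1.03 at resolution 0.3), Gbe1 (-0.92 with stricter limits, -1.51 at resolution 0.3) and Adm (-2.54 with stricter limits, -0.10 without the highest doublet scores, -3.06 and -0.59 at resolutions 0.3 and 0.8, -1.46 without the Hspa1a subcluster). With library totals Aldoa (0.25), Eno1 (0.14) and Ldha (0.018) turned there as well. The Bnip3 share was 54.6% in neutrophil-like and 11.3% in T-cell-like barcodes with stricter limits. Beyond the alternatives' own construction, the cause was not tested.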

Other observations

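The classes other than neutrophils were not uniform in these genes either. Among T-cell-like barcodes, the cluster led by Il17a and Trdc held 403, 159.6 and 305 CPM of Hilpda in libraries 1, 2 and 3, against 48.9, 65.9 and 66.998 in the cluster led by Ccl5 and Gzmk. Ero1l stood at 161, 139 and 125 and 32.1, 18.3 and 29.03, and Hk2 at 112, 116 and 116 and 1.69, 12.2 and 8.93, in the same clusters. The cluster led by Tnfrsf4 and Tnfrsf18 held 319, 282 and 278 CPM of Hif1a. Among monocyte/macrophage-like barcodes, the cluster led by Ms4a7 and Tmem119 held 178, 122 and 188 CPM of Bnip3 and 815, 719.7 and 923 of Aldoa, and the cluster led by Ccl8, Cbr2 and Folr2 held 89.5, 69.3 and 80.1 and 411, 435 and 495. Among dendritic-cell-like barcodes, the cluster led by Ccr7 and Fscn1 held 132, 101 and 105 CPM of Pfkfb3, against 14.6, 18.7 and 7.40 in the cluster led by Plet1 and Ppp1r1a. These values were chosen after they were seen and were not tested.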
